A study of Mus musculus with 72 samples.

Results

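Wild-type RAW264.7 cells given interferon beta (IFNB1) together with lipopolysaccharide (LPS) were set against wild-type RAW264.7 cells given LPS alone. RAW264.7 is a mouse macrophage line, labelled as BALB/c and male. Libraries were taken by genotype and treatment as the labels give them. There were 3 of cells held for 6 h in 100 ng/ml LPS plus 10 ng/ml IFNB1 and 3 of cells held for 6 h in 100 ng/ml LPS, together 6 of the 72 libraries of a series on loss of the histone methyltransferase genes Setd1a and Setd1b in macrophages. The same experiment holds 6 libraries of RAW264.7 cells with 1 deleted Setd1a allele (Setd1aDel/+, here Setd1aDel), 3 for each of the same treatments. None of these 12 libraries is of cells without LPS, so every IFNB1 value below is a change on top of LPS. No label says that the replicates were grown as separate cultures, so p-values measure the spread between these libraries, which may be technical. The labels do not say how many clones the Setd1aDel cells came from.

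Type I interferons are cytokines that macrophages themselves release after LPS reaches Toll-like receptor 4, through the adaptor TRIF and the factor IRF3. IFNB1 binds the receptor made of IFNAR1 and IFNAR2 and activates the kinases JAK1 and TYK2, whose signal reaches transcription factors in the nucleus, STAT2 and IRF9 among them. Antiviral genes carry interferon-stimulated response elements (ISREs) in their promoters, and some carry gamma-activated sites (GAS). Adding IFNB1 to LPS therefore adds ligand to a pathway that LPS also reaches.

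With IFNB1 most interferon-stimulated genes stood above their LPS level, and many genes of DNA replication were lower by smaller amounts. Of 10923 genes tested, 1038 were higher with IFNB1, which is 9.5% of those tested, and 2571 were lower, which is 23.5%. Changes of at least 2-fold went mostly upward, with 166 genes higher (1.52%) and 21 lower (0.192%). Each gene was tested with limma on log2(TPM + 1), and counted as called where its two-sided p, adjusted by Benjamini-Hochberg over all tested genes, was under 0.05. TPM is a gene's share of a library's transcripts, corrected for transcript length and scaled to a fixed total. The 6 values did not overlap between the groups in 1428 genes that were higher (13.1%) and 3698 that were lower (33.9%). A fold on this scale understates the change of genes with low levels. The median change of all tested genes was -0.09 on the log2 scale. Rescaling each library by the median ratio of its genes moved that median by 0.08, gave 1602 genes higher and 1355 lower, and left 166 of the 166 genes raised at least 2-fold at that size. Counts of small decreases therefore depended on the scaling.

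The promoters of 4 strongly raised genes are printed to show the ISRE core, GAAA, any 2 bases and GAAA, which stands in capitals and was searched on both strands, so that it also reads TTTC, any 2 bases and TTTC. Gbp2 encodes a guanylate-binding protein that acts on pathogen vacuoles, Cxcl10 a chemokine for activated T cells, Rsad2 the antiviral enzyme viperin, and Isg15 a ubiquitin-like protein. Each sequence is a RefSeq window of assembly GRCm38.p6, running 5′ to 3′ on the gene's strand from 250 bases before to 50 after the annotated start. The reference is another mouse strain than BALB/c. Gbp2 lies at chr3:142620413-142620712 on the plus strand. The other windows are on the minus strand, with Cxcl10 at chr5:92348840-92349139, Rsad2 at chr12:26456403-26456702 and Isg15 at chr4:156200769-156201068.
Gbp2: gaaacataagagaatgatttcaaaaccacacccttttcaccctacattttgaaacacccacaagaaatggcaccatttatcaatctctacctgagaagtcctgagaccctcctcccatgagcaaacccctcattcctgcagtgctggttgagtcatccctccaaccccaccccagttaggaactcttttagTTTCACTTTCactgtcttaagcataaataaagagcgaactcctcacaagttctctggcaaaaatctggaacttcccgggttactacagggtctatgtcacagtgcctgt
Cxcl10: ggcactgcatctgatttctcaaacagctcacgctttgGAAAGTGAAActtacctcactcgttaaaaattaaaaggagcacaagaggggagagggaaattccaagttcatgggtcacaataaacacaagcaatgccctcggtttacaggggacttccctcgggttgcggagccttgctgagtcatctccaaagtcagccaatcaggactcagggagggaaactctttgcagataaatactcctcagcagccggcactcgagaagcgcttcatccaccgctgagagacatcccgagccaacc
Rsad2: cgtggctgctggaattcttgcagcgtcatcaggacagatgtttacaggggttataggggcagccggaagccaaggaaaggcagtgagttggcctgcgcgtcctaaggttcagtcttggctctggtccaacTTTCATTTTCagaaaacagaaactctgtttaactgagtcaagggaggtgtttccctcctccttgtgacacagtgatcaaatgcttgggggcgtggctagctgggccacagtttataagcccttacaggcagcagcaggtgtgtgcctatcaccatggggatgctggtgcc
Isg15: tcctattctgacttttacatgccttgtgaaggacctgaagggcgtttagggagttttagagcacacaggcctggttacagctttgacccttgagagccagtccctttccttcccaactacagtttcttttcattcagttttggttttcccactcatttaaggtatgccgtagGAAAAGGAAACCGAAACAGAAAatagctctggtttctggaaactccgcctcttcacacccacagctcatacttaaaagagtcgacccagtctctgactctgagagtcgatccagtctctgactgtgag

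The core began 59 bases before the start in Gbp2, 213 before it in Cxcl10 and 120 before it in Rsad2, and 3 overlapping cores began 78, 72 and 66 bases before the start of Isg15. Among genes with a window, the share that held an ISRE core was larger in classes with a larger increase. It was 56.5% of the genes raised at least 4-fold (13 of 23), 32.3% of those raised from 2-fold to 4-fold (31 of 96) and 9.6% of those raised by less (65 of 677). It was 3.35% of genes not called (185 of 5523) and 2.39% of genes lowered by under 2-fold (49 of 2049), and 1 of the 12 genes lowered at least 2-fold held it (8.33%). All 32851 windows of the RefSeq table held it in 3.44%. The GAS core, TTCNNNGAA, which can overlap other motifs, was found in 21.7% of the genes raised at least 4-fold (5 of 23), 11.5% of those raised from 2-fold to 4-fold (11 of 96) and 10.8% of those raised by less (73 of 677), against 8.23% of all tested genes with a window (690 of 8380). All windows of the table held it in 8.3%. Windows existed for 8380 of the 10923 tested genes. A match is a run of letters and does not show that a factor binds there.

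**Figure D1:**
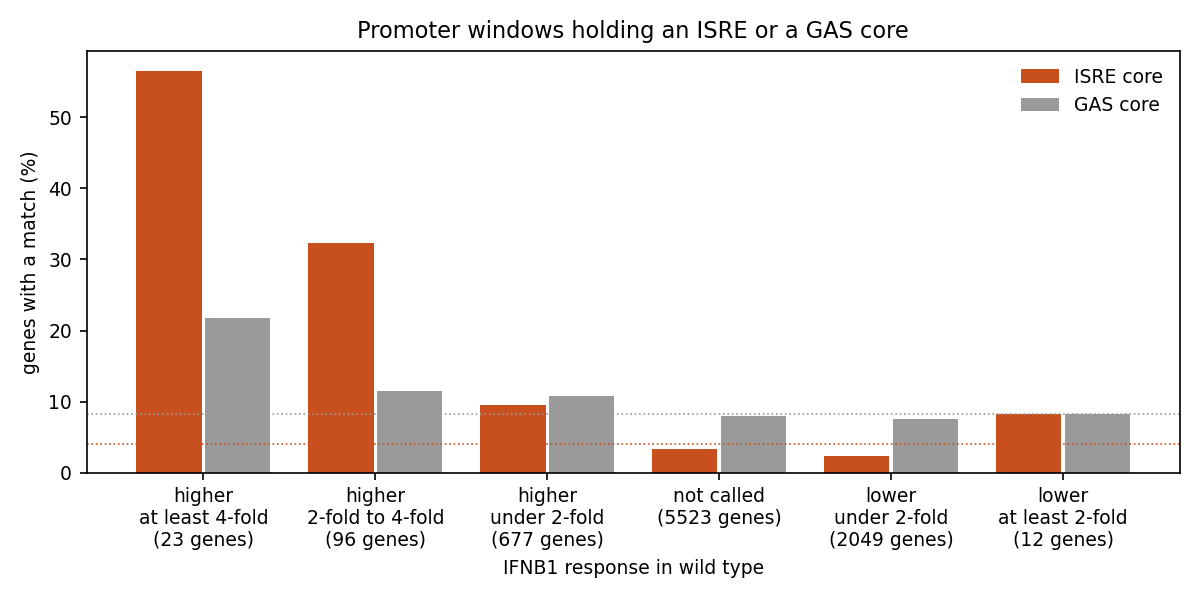
Share of genes whose promoter window holds an ISRE core (orange bars) or a GAS core (grey bars), in percent, by size of the IFNB1 response in wild-type cells; dotted lines give the share among all tested genes with a window. The ISRE share is 56.5% for genes raised at least 4-fold, 32.3% for those raised from 2-fold to 4-fold and 3.35% for genes not called.

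The antiviral effector families rose almost without exception. All 6 IFIT genes, whose proteins bind viral RNA, were higher, with a median log2 change of 2.31, against -0.09 over all tested genes. Ifit3 had 370, 384 and 386 TPM in IFNB1 with LPS, against 65.4, 65.6 and 59.5 TPM in LPS, a log2 change of 2.56 ± 0.06 (SE, n = 3 each, adjusted p = 3.23e-10). Ifit1 had 342, 361 and 354 TPM in IFNB1 with LPS, against 93.3, 89.4 and 85.9 TPM in LPS. The 2 groups did not overlap in either gene, and Ifit3b, a near-identical copy of Ifit3 whose reads the counting could have split with it, moved by 2.46. Mx1, an antiviral GTPase at chr16:97447035-97462907 on the minus strand (GRCm38), had 34.9, 31.4 and 34.9 TPM in IFNB1 with LPS, against 3.4, 3.2 and 2.5 TPM in LPS (log2 change 3.11 ± 0.11). Rsad2 had 102, 102 and 100.3 TPM in IFNB1 with LPS, against 14, 14.8 and 12.7 TPM in LPS (2.79 ± 0.07). Its neighbour Cmpk2, a nucleotide kinase, rose by 2.39, while Mx2 rose by 1.00.

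Large responses also came from the GTPases that interferon induces against pathogens inside cells. Of 23 guanylate-binding and immunity-related GTPase genes 20 were listed and 15 tested. All 15 were higher, 13 of them by at least 2-fold, with a median of 1.90. A gene at low levels with LPS could enter the tests through the IFNB1 libraries alone, which favours genes that IFNB1 raises. Under the other settings 14 to 17 were called higher and none lower. Gbp2 had 37.4, 33.5 and 35.4 TPM in IFNB1 with LPS, against 2.5, 2.4 and 2.1 TPM in LPS, a ratio of means of 15.2 and a log2 change of 3.45 ± 0.10 (adjusted p = 1.49e-09), the highest of the genes at 5 TPM or more. Gbp2b had 30.0, 31.5 and 31.7 TPM in IFNB1 with LPS, against 2.0, 2.3 and 1.7 TPM in LPS (3.42 ± 0.10). Tgtp2 followed with 3.29 ± 0.14 and Iigp1 with 2.88. Gbp2 and Gbp2b, and Tgtp2 and Tgtp1, are close copies, and how reads were shared within each pair is not known. The 13 tested IFI200 genes, whose proteins sense DNA or bind chromatin, were all higher, with a median of 1.30. Ifi204 had 227, 235 and 231 TPM in IFNB1 with LPS, against 36.2, 34.0 and 33.6 TPM in LPS (2.70 ± 0.04). Ifi211 rose by 2.72 and Ifi209 by 2.63.

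Among OAS genes, which make or act on the activator of RNase L, 8 of 9 were higher with a median of 0.67. Oasl2, an OAS-like protein, led with 2.45 ± 0.08, Oas1a rose by 0.90, and Oas1c, at -0.01, was not called. Of 8 Schlafen genes, 7 were higher. Slfn1 had 14.4, 14.6 and 15.2 TPM in IFNB1 with LPS, against 1.2, 1.3 and 0.6 TPM in LPS (2.97 ± 0.12), and Slfn3 had 19.4, 21.7 and 20.4 TPM in IFNB1 with LPS, against 21, 20.2 and 17.1 TPM in LPS, where the groups overlapped. All 5 genes of the ISG15 conjugation system rose. Isg15 itself had 1075, 1041 and 1035 TPM in IFNB1 with LPS, against 427, 419 and 387 TPM in LPS (1.35 ± 0.05). Ube2l6, the conjugating enzyme, rose by 1.80, Herc6, a ligase in mouse, by 1.69, Usp18, which removes ISG15 and restrains IFNAR2, by 1.06, and the activating enzyme Uba7 by 0.76. In a wider list of restriction factors and other interferon-stimulated genes, 53 of 63 were higher and 1 was lower, Ifi27 (-0.22), which was named after its values were seen. Isg20, an RNA exonuclease, had 266, 251 and 255 TPM in IFNB1 with LPS, against 56.7, 53.7 and 47.7 TPM in LPS (2.27 ± 0.09).

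Over these 8 lists together, 122 of 133 genes were tested. Of the 122, 110 were higher, against 9.5% of all tested genes, and 1 was lower. At least 2-fold rises were found in 64 of them, against 1.52% of all tested genes, and their median was 1.05. Their summed level was 2.41%, 2.43% and 2.43% of all listed TPM in IFNB1 with LPS, against 1.25%, 1.205% and 1.19% in LPS. The 3 libraries with IFNB1 lay together, and each held a larger share than any LPS library. The values of individual genes are shown in the plot of TPM by library. Of the 166 genes raised at least 2-fold, 62 were in none of the 32 lists used here.

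**Figure D2:**
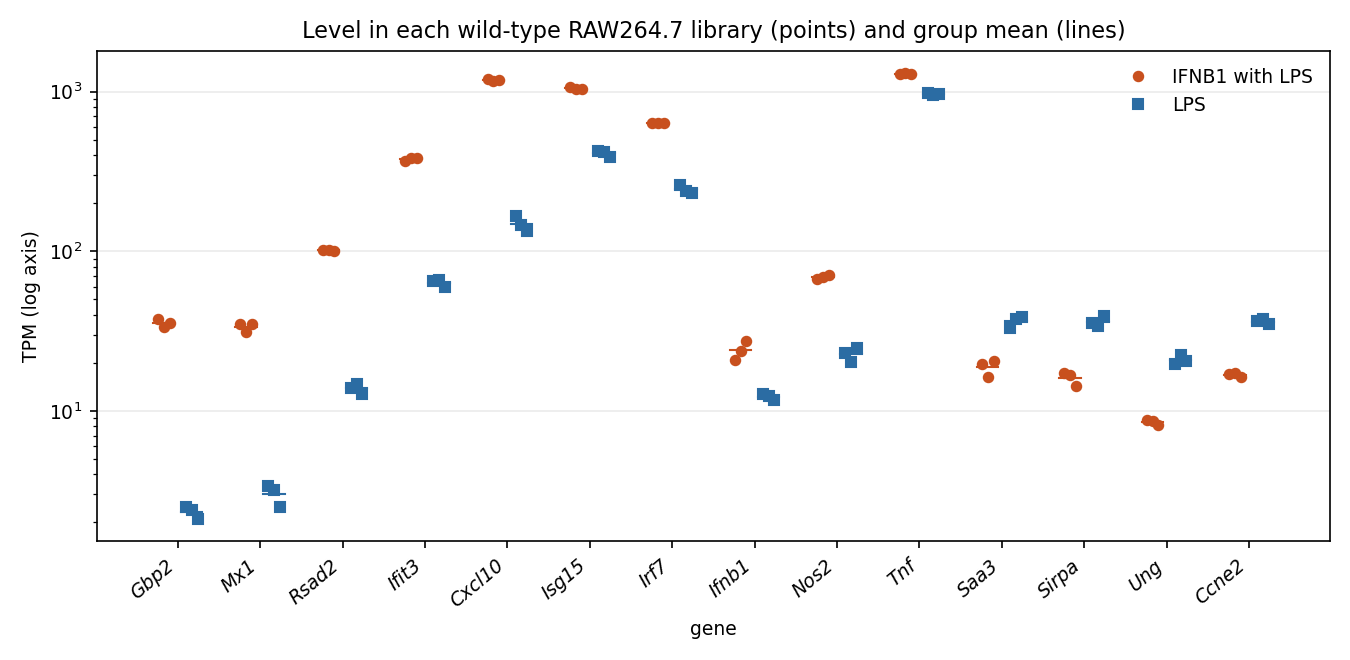
TPM of 14 genes in each wild-type library, on a log axis; orange circles are IFNB1 with LPS, blue squares are LPS, and short lines are group means. Gbp2 to Tnf are higher with IFNB1, and Saa3, Sirpa, Ung and Ccne2 are lower. The 2 groups overlap in none of the 14 genes, some of which were named by a rule that required this. Of all tested genes 13.1% were higher and 33.9% lower without overlap.

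The genes that carry the interferon signal changed less than its targets, and unevenly. Ifnb1, the endogenous ligand, lies at chr4:88522025-88522774 on the minus strand (GENCODE vM21 on GRCm38). It had 20.8, 23.6 and 27.5 TPM in IFNB1 with LPS, against 12.8, 12.4 and 11.7 TPM in LPS (log2 change 0.90 ± 0.16, adjusted p = 0.00157). The added protein is not measured by RNA. The receptor gene Ifnar2 was not called (-0.03), and Ifnar1 had 17.0, 17.0 and 15.5 TPM in IFNB1 with LPS, against 18.2, 19.2 and 19.4 TPM in LPS, with a call that did not hold after rescaling (adjusted p = 0.0298, and 0.159 rescaled). Ifngr1, a chain of the interferon gamma receptor, fell by 0.34. Of the factors that act on ISREs, Stat2 rose by 1.09 ± 0.05 and Irf9 by 0.24 ± 0.03. Irf9 had 76.9, 79.1 and 76.6 TPM in IFNB1 with LPS, against 65.9, 64.9 and 65.5 TPM in LPS, a small change with no overlap. Irf7, the factor that amplifies interferon production, had 635, 636 and 637 TPM in IFNB1 with LPS, against 262, 239 and 231 TPM in LPS (1.38 ± 0.04). Batf2 rose by 2.10, Nlrc5, the activator of MHC class I genes, by 1.22, Jak2 by 0.70 and Irf1 by 0.49. In this list of JAK-STAT and IRF factors 14 of 19 were higher and 1 was lower, Stat5b (-0.26), named after its values were seen. The shares over all tested genes were 9.5% higher and 23.5% lower before rescaling.

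Sensors of nucleic acids rose in 14 of 17 cases, with a median of 0.51, and 2 were lower, Tlr13 (-0.60) and Ikbke (-0.19, not called after rescaling), both named after their values were seen. Zbp1, which senses Z-form nucleic acids, had 397, 396 and 403 TPM in IFNB1 with LPS, against 93.0, 89.6 and 82.6 TPM in LPS (2.16 ± 0.05). Ifih1, the RNA sensor MDA5, rose by 1.53, and Ddx58, the RNA sensor RIG-I, by 0.68. The adaptor Mavs was not called (-0.14). Among genes that restrain these pathways 12 of 33 were higher and 3 lower, with a median of 0.08, and after rescaling 14 were higher and 2 lower. Socs1, an inhibitor of JAK kinases, had 2.6, 2.5 and 2.6 TPM in IFNB1 with LPS, against 0.9, 1.1 and 1.4 TPM in LPS (0.75, adjusted p = 0.00385, and 0.113 with a pseudocount of 0.1). Socs3 rose by 0.44, and Nfkbiz and Dusp5 by 0.78 and 0.72. Of 13 genes of the TLR4 complex and its adaptors 1 was higher, Cd14 (0.28), and 2 were lower, Ticam2 (-0.63), an adaptor for TRIF, and Tlr2 (-0.16, not called after rescaling), while after rescaling 3 were higher and 1 lower. Before rescaling neither count of this list was above the share over all tested genes, 9.5% higher and 23.5% lower.

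Genes of MHC class I presentation, which loads peptides for CD8 T cells, were higher in 22 of 25 cases, with none lower and a median of 0.87. Immunoproteasome subunits led, with Psmb10 at 130.0, 121 and 109 TPM in IFNB1 with LPS, against 42.4, 41.6 and 34.5 TPM in LPS (1.58 ± 0.10). Psmb9 rose by 1.34, the proteasome activator Psme1 by 1.31, the peptide transporter Tap2 by 1.19 and the class I gene H2-T22 by 1.14. The chaperones Calr and Pdia3 were not called (0.06 and 0.04), although after rescaling all 25 genes were higher. Of 10 class II and costimulation genes 5 were higher and 1 was lower, Icosl (-0.34), which was not called after rescaling. Of all tested genes 9.5% were higher and 23.5% lower before rescaling. Cd40, the receptor for T cell help, rose by 1.61, the checkpoint ligand Cd274 by 1.03 and the death ligand Tnfsf10 by 1.91, whereas Cd74, the class II invariant chain, was not called (0.06).

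**Figure D3:**
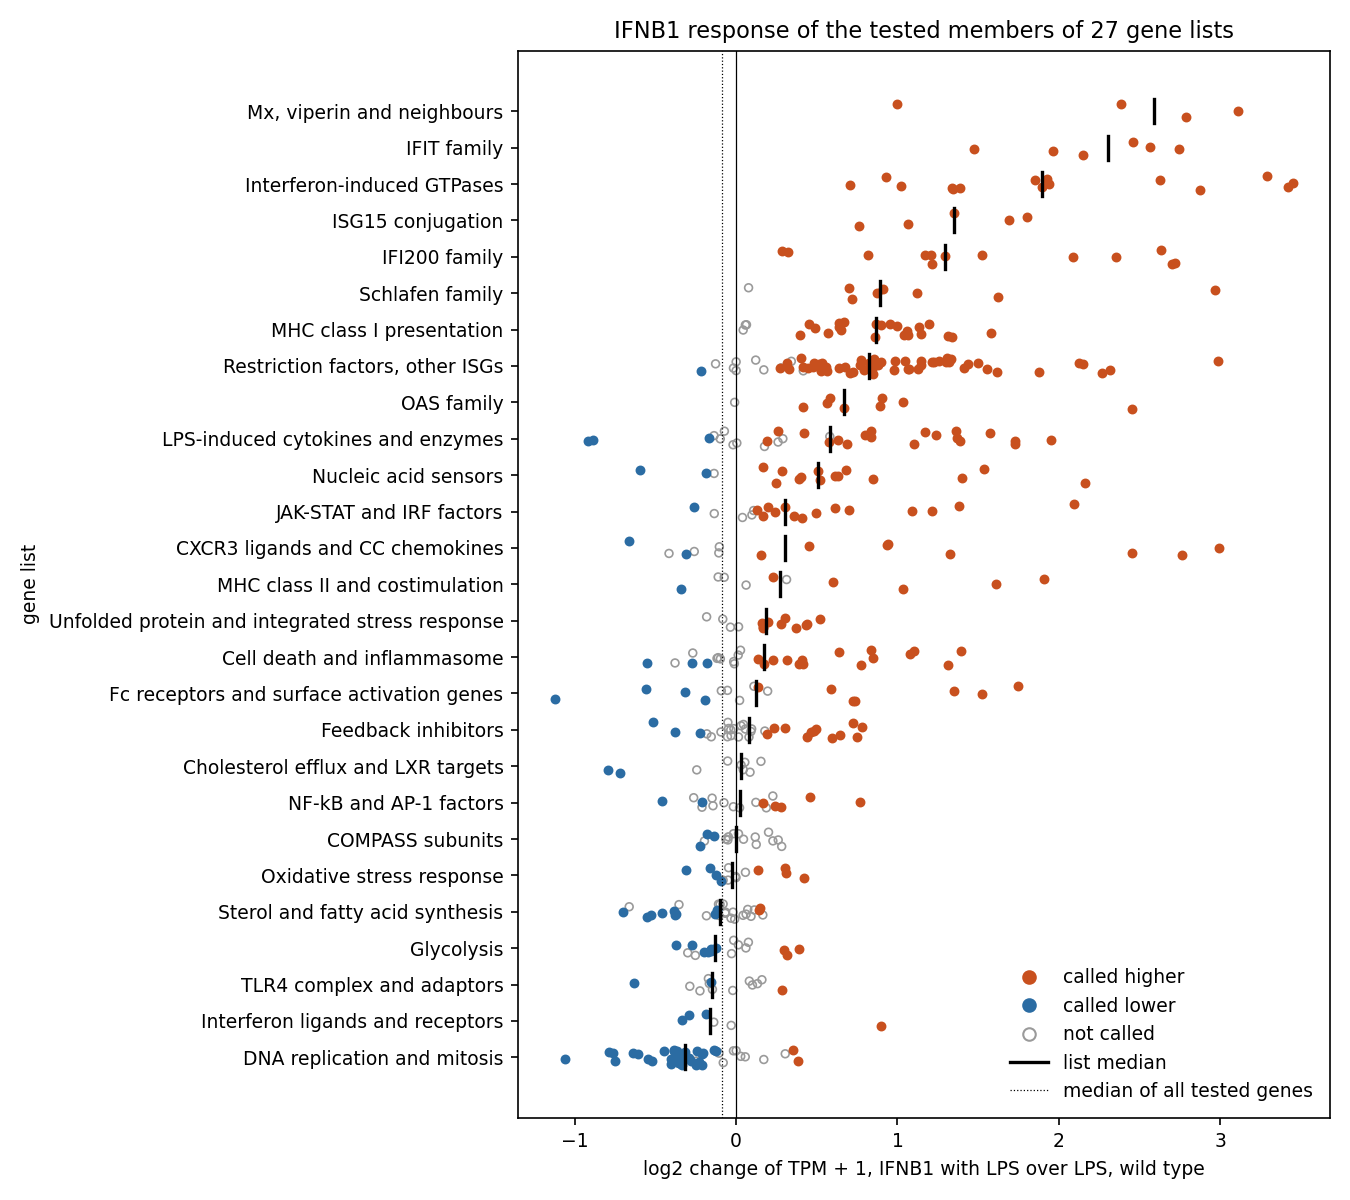
Log2 change of TPM + 1 in wild-type cells, IFNB1 with LPS over LPS, for each tested gene of 27 lists; orange is called higher, blue called lower, open grey not called, black bars are list medians and the dotted line is the median of all tested genes (-0.09). List medians run between 2.59 for Mx, viperin and neighbours and -0.32 for DNA replication and mitosis.

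Among chemokines the 3 ligands of CXCR3, which draw T and NK cells, had the highest changes. Cxcl10 had 1208, 1166 and 1185 TPM in IFNB1 with LPS, against 166, 147 and 133 TPM in LPS, a ratio of means of 7.98 and a log2 change of 2.99 ± 0.08 (adjusted p = 5.63e-10). Cxcl11 had 19.2, 20.2 and 20.8 TPM in IFNB1 with LPS, against 2.2, 2.1 and 2.0 TPM in LPS (2.76 ± 0.09). Cxcl9 had 5.3, 4.2 and 4.0 TPM in IFNB1 with LPS and was listed at 0 in the 3 LPS libraries, so no fold is given. Ccl5 rose by 1.33, Ccl4 by 0.94 and Ccl3 by 0.45. Of 14 chemokines tested 8 were higher and 2 lower, both named after their values were seen. Before rescaling 9.5% of all tested genes were higher and 23.5% lower, so the 2 lower were not above the general share. Ccl22, a CCR4 ligand, had 21.6, 23.3 and 23.9 TPM in IFNB1 with LPS, against 37.1, 35.4 and 38.3 TPM in LPS (-0.66 ± 0.06, adjusted p = 1.53e-05). Ccl2, a ligand of CCR2 on monocytes, changed by -0.31 ± 0.07.

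Cytokines and enzymes that LPS induces were higher in 19 of 31 cases and lower in 3, with a median of 0.58. Nos2, which makes nitric oxide, had 67.0, 69.1 and 70.6 TPM in IFNB1 with LPS, against 23, 20.1 and 24.6 TPM in LPS (1.57 ± 0.08). Il15ra rose by 1.95, Csf1 and Il33 each by 1.73, and Il27 by 1.39. Il10, an anti-inflammatory cytokine, had 1.5, 1.4 and 2.1 TPM in IFNB1 with LPS, against 0.0, 0.1 and 0.0 TPM in LPS, levels close to the 0.1 TPM step of the values. The classic inflammatory cytokines Tnf and Il1b moved less than these. Tnf had 1280, 1307 and 1297 TPM in IFNB1 with LPS, against 979, 959 and 960.0 TPM in LPS (0.42 ± 0.02, adjusted p = 6.93e-08). Il1b had 589, 592 and 630 TPM in IFNB1 with LPS, against 373, 398 and 396 TPM in LPS (0.63 ± 0.06). Il6 rose by 0.84 at levels of 3.3 TPM or less, where this scale understates a change, and the authors' deposited log2 fold change was 1.38. Ptgs2, the inducible cyclooxygenase, rose by 0.84. Il12b was listed at 0 in all 6 libraries, and Cxcl2 and Vegfa were not called (-0.10 and 0.00).

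The 3 lower members of that list, all named after their values were seen, were Saa3, Mmp9 and Ebi3. Saa3, an acute phase protein made by macrophages, had 19.7, 16.4 and 20.6 TPM in IFNB1 with LPS, against 33.1, 37.5 and 38.8 TPM in LPS (-0.92 ± 0.09, adjusted p = 1.84e-05). Mmp9, a gelatinase, had 1.0, 1.2 and 1.3 TPM in IFNB1 with LPS, against 2.5, 2.4 and 4.4 TPM in LPS (-0.89 ± 0.17). Ebi3 changed by -0.17 and was not called after rescaling. In the list of NF-kB and AP-1 factors 5 of 17 were higher and 2 lower (5 and 1 after rescaling), with Atf3 at 0.77, Rel at 0.46 and Fos at -0.46. Over all tested genes the shares before rescaling were 9.5% higher and 23.5% lower.

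Surface and cell death genes were mixed. Of 16 Fc receptor and surface activation genes 7 were higher and 4 lower, and after rescaling 8 and 4. Over all tested genes 9.5% were higher and 23.5% lower before rescaling, so the 4 lower were near the general share. Fcgr4 and Fcgr1, activating IgG receptors, rose by 1.75 and 1.35, and Axl, a receptor for dying cells, by 1.53. Sirpa, the inhibitory receptor for CD47, lies at chr2:129592835-129632228 on the plus strand (GRCm38). It had 17.2, 16.9 and 14.3 TPM in IFNB1 with LPS, against 35.7, 33.8 and 39.3 TPM in LPS (-1.12 ± 0.07, adjusted p = 6.37e-07), while its ligand gene Cd47 rose by 0.74 ± 0.06. The groups overlapped in neither gene. Siglece, another inhibitory receptor, had 1.8, 2.9 and 2.3 TPM in IFNB1 with LPS, against 7.7, 6.2 and 6.6 TPM in LPS (-1.24 ± 0.12), and Fgr, a Src family kinase, fell by 0.94. Fcgr2b, the inhibitory IgG receptor, named after its values were seen, changed by -0.56 ± 0.05. Of 27 cell death and inflammasome genes 15 were higher and 3 lower, and after rescaling 15 and 2. Casp4, the caspase that binds LPS in the cytosol, rose by 1.40, Mlkl, the pore of necroptosis, by 1.31, and Gsdmd, the pore of pyroptosis, by 0.85.

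Genes of DNA replication and mitosis made up the clearest lowered group. Of 45 tested, 32 were lower and 2 higher with a median of -0.32, and after rescaling 28 were lower and 4 higher. Ccne2, a cyclin of S phase entry, had 17.1, 17.2 and 16.2 TPM in IFNB1 with LPS, against 36.4, 37.5 and 34.8 TPM in LPS (-1.06 ± 0.09, adjusted p = 6.72e-06). Tk1, thymidine kinase, fell by 0.79, the E2F factors E2f8 and E2f2 by 0.76 and 0.75, and Ccne1 by 0.64. The mitotic topoisomerase Top2a was not called (-0.11). Outside the list, Ung, which removes uracil from DNA and lies at chr5:114130386-114139323 on the plus strand (GRCm38), had 8.8, 8.7 and 8.2 TPM in IFNB1 with LPS, against 19.8, 22.5 and 20.4 TPM in LPS (-1.19 ± 0.07). In bulk RNA fewer cells in a phase and less RNA per cell cannot be told apart. Lpl, lipoprotein lipase, fell by 0.79 and Nr1h3, the receptor LXR alpha, by 0.72. They were the 2 lower of 9 genes of cholesterol efflux and LXR targets, a share near the 23.5% lower among all tested genes, and the median of that list was 0.03. Of 29 sterol and fatty acid synthesis genes 9 were lower and 2 higher, with 7 lower and 4 higher after rescaling. Their median of -0.10 was close to the -0.09 of all tested genes, and Scd2, a fatty acid desaturase, fell by 0.70. Of 14 genes of the unfolded protein and integrated stress responses 10 were higher and none lower, all by small amounts such as Trib3 at 0.52 and Ddit3 at 0.43.

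The cells carried the macrophage markers of their label in both groups. All 12 were listed, and they summed to 6368 to 6492 TPM in IFNB1 with LPS, against 7135 to 7362 TPM in LPS. Among them Lyz2, lysozyme, fell by 0.54, Cd68 by 0.28 and Mpeg1, perforin-2, rose by 0.98. Markers of other cell types were low. Of 8 T and NK cell markers 3 were listed, with sums of 0.0 to 0.1 TPM in IFNB1 with LPS and 0.0 TPM in LPS, and Cd4 and Cd8a at 0 in all 6 libraries. Of 5 B cell markers 4 were listed, none at 0 throughout, with sums of 0.4 to 0.5 TPM in IFNB1 with LPS and 0.3 to 0.6 TPM in LPS. Of 6 neutrophil markers 4 were listed, with sums of 1.0 to 2.5 TPM in IFNB1 with LPS and 1.0 to 1.2 TPM in LPS, and Mpo, Elane and Camp at 0. Of 7 fibroblast and epithelial markers Col1a1 alone was listed, at 0. Listed TPM summed to 894929 to 899249 per wild-type library with 10377 to 10508 genes at 1 TPM or more, and replicates correlated at 0.985 to 0.987 across genes on the log2 scale. Read depth is unknown. Among the lowest changes, Rps12l1, Gm14434 and Ago1 were unstable between replicates or are copies of other genes, and among the highest Snora21 is a small RNA that libraries of polyadenylated RNA measure poorly. Setd1a had 37.6, 35.7 and 26.8 TPM in IFNB1 with LPS, against 35.3, 28.7 and 39.4 TPM in LPS, and was not called.

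The LPS response was taken from separate libraries of the 6 h experiment, 3 of wild-type RAW264.7 cells given 100 ng/ml LPS and 3 given vehicle, all with 0.1% ethanol. Levels with LPS alone differed between the 2 experiments, whose values were normalized separately. Of the 103 interferon-stimulated genes tested in both, 87 had a higher mean with LPS in the 6 h experiment, with a median ratio of 2.19. Over all 8824 genes tested in both 2963 did, with a median ratio of 0.786. The spread was estimated over all 24 libraries of the 6 h experiment, which include Setd1aDel cells and cells given dexamethasone. Of 8981 genes tested there, 1751 were higher with LPS (19.5%) and 4700 lower (52.3%). After rescaling these were 3072 and 3039. Among genes tested in both, those that IFNB1 raised were mostly genes that LPS raised. Of the 889 genes higher with IFNB1 that were tested there, 667 were higher with LPS, which is 75.0%, against 19.5% of the 8824 genes tested in both. Of the 115 genes raised at least 2-fold by IFNB1 and tested there, 111 were higher with LPS, with a median LPS change of 3.82. Of the 2333 genes lower with IFNB1, 1818 were lower with LPS, which is 77.9%, against 52.5% of all. After rescaling of the LPS comparison alone, 1385 of the 2333 were lower with LPS, against 2990 of the 8824. Within the interferon-stimulated lists, the IFNB1 change and the LPS change had a Spearman correlation of 0.707 over 103 genes, given as a description, since the genes of a library are not independent. It was 0.581 over the 8824 genes tested in both and 0.544 over the 889 called higher with IFNB1. Between the IFNB1 change and the LPS level it was 0.056 over the 103 genes and 0.211 over the 8824.

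**Figure D4:**
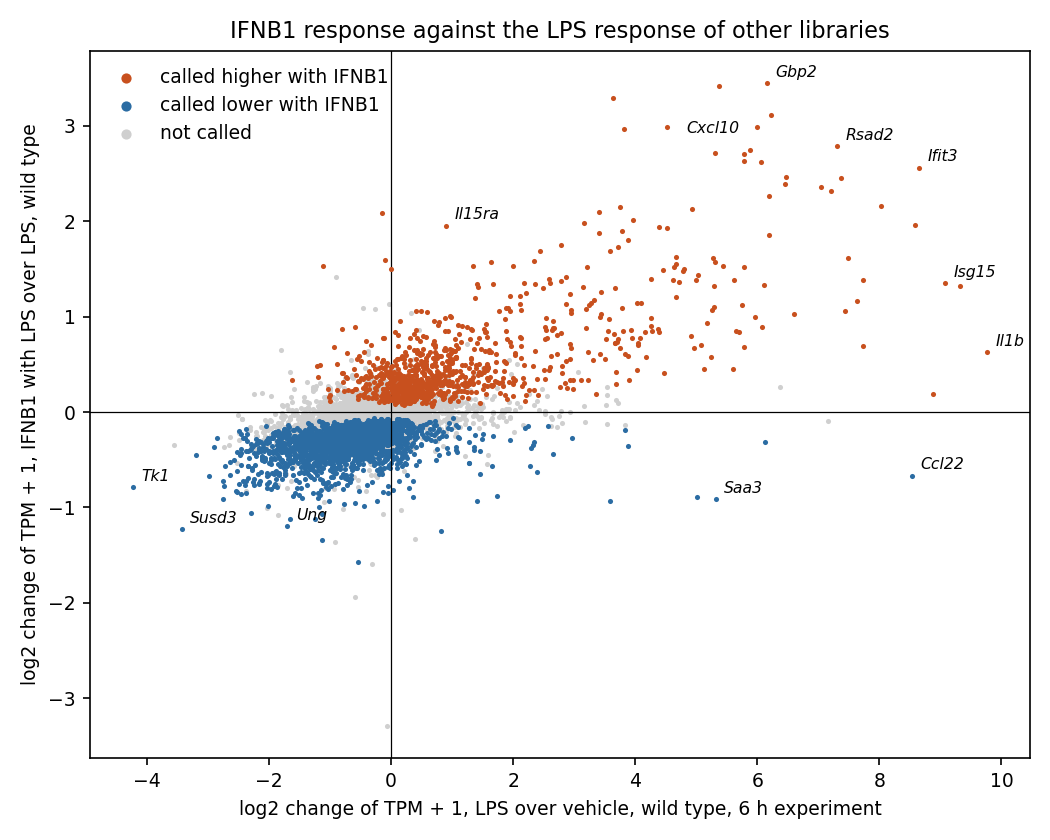
Log2 change of TPM + 1 with IFNB1 (vertical, IFNB1 with LPS over LPS) against that with LPS (horizontal, LPS over vehicle, other libraries) for each gene tested in both, in wild-type cells; orange is called higher with IFNB1, blue called lower and grey not called. Most orange points lie to the right of 0, and Ccl22 and Saa3 lie below the line among genes that LPS raised.

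Other genes had opposite calls in the 2 comparisons. Of the 2333 genes lowered by IFNB1 and tested there, 174 were higher with LPS (7.46%, against 19.5% of all), 41 of them at least 2-fold. After rescaling of the LPS comparison alone, 387 of them were higher with LPS, against 3021 of the 8824 genes tested in both. Ccl22 rose by 8.54 with LPS in those libraries, Saa3 by 5.32, Mmp9 by 5.01 and Fcgr2b by 2.28, and each was lower when IFNB1 was added to LPS. Fgr, which IFNB1 lowered, rose by 1.41 with LPS. Sirpa, Ung and Ccne2 were lower with LPS (-1.24, -1.70 and -2.29) and lower again with IFNB1. Of the 889 genes higher with IFNB1, 77 were lower with LPS (8.66%, against 52.5% of all). After the same rescaling 42 were, against 2990 of the 8824.

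The response was then set against that of Setd1aDel cells in the same fit. Setd1a itself had 13.6, 14.4 and 16.6 TPM in Setd1aDel cells with IFNB1 and LPS and 19.8, 22.9 and 26.5 TPM in Setd1aDel cells with LPS, all below the lowest wild-type library. The difference of the responses, Setd1aDel minus wild type, was called positive for 362 genes (3.31% of those tested) and negative for 875 (8.01%). Those counts depended on the libraries and the scaling, with 618 positive and 317 negative after rescaling. Of the 166 genes raised at least 2-fold in wild-type cells, which were chosen by their wild-type response, 95 had a larger change in Setd1aDel cells and 8 a smaller one. After rescaling these were 98 and 5. In the 122 genes of the interferon-stimulated lists 86 differences were positive and 2 negative.

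With LPS alone, the 3 Setd1aDel libraries lay below the 3 wild-type libraries in 73 of these 122 genes and above them in 23. With IFNB1 and LPS they lay below them in 34 and above them in 60. Over all 10923 genes the counts were 3365 below and 2320 above with LPS, and 4566 below and 1871 above with both agents. All these counts were made without rescaling. Ifit3 had 570, 588 and 613 TPM in IFNB1 with LPS, against 27.5, 24.8 and 29.3 TPM in LPS, in Setd1aDel cells, a response larger than the wild-type one by 1.83 ± 0.08 on the log2 scale (adjusted p = 1.18e-06). Isg15 had 1012, 997 and 961 TPM in IFNB1 with LPS, against 149, 131 and 135 TPM in LPS, in Setd1aDel cells (difference 1.48 ± 0.07). With both agents its levels lay just below those of wild-type cells, and with LPS alone they averaged 138 TPM in Setd1aDel cells, against 411 TPM in wild-type cells. The small gap with both agents depended on the scaling. Rescaling divides those libraries by 0.8944, 0.918 and 0.9222 in Setd1aDel cells and by 1.009, 1.0163 and 0.9937 in wild-type cells. Gbp2 had 63.9, 69.4 and 73.1 TPM in IFNB1 with LPS, against 2.7, 1.8 and 1.9 TPM in LPS, in Setd1aDel cells (difference 1.04 ± 0.15). Here it was the level with both agents that was higher. The summed interferon-stimulated lists were 2.93%, 3.02% and 3.05% of listed TPM in Setd1aDel cells with both agents and 1.085%, 1.07% and 1.06% in Setd1aDel cells with LPS. Endogenous Ifnb1, given beside these, had 2.7, 4.0 and 2.1 TPM in Setd1aDel cells with both agents and 1.8, 1.3 and 1.3 TPM in Setd1aDel cells with LPS, below all 6 wild-type libraries. Its part in the differences was not tested.

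**Figure D5:**
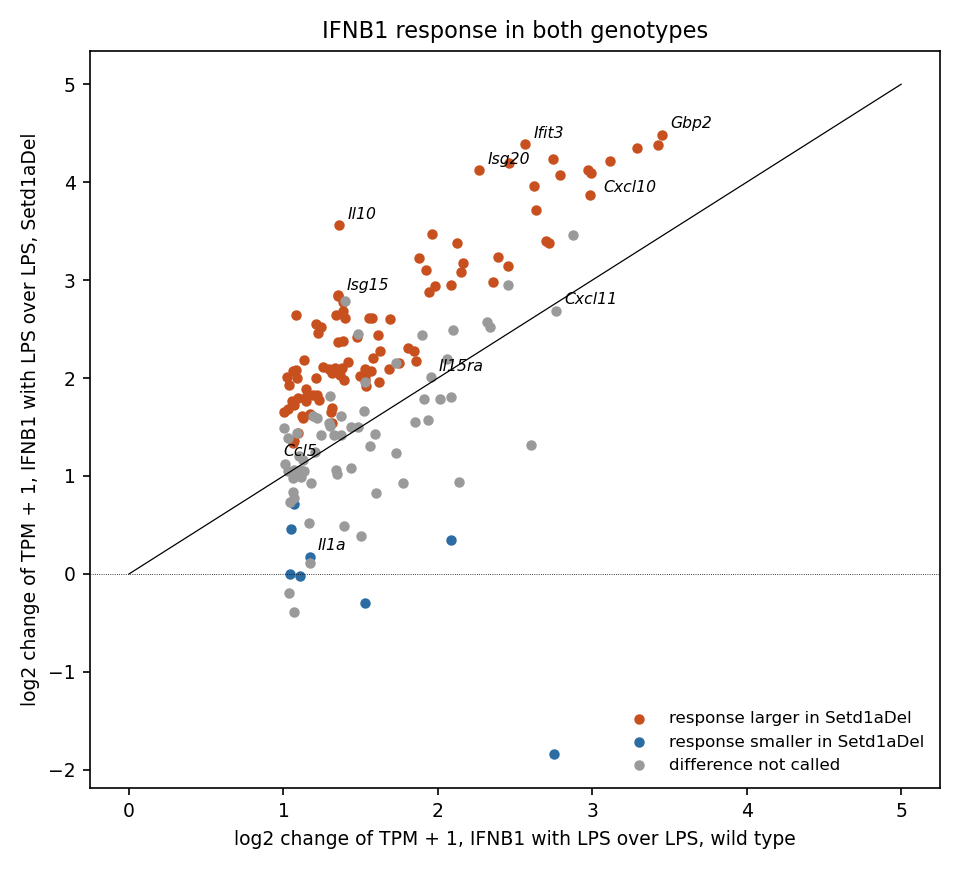
Log2 change of TPM + 1, IFNB1 with LPS over LPS, in Setd1aDel cells (vertical) against wild-type cells (horizontal) for the 166 genes raised at least 2-fold in wild-type cells; orange points had a larger response in Setd1aDel cells, blue a smaller one, and grey were not called, with the line of equal response. Isg20, Ifit3 and Il10 lie far above the line, and Cxcl11, Ccl5 and Il15ra close to it.

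Not every gene raised in wild-type cells had a called difference. It was -0.08 ± 0.13 for Cxcl11, 0.09 ± 0.09 for Ccl5 and 0.05 ± 0.17 for Il15ra, none of them called. Isg20 had the largest positive difference among the interferon-stimulated genes named here, 1.85 ± 0.13. Il10 had 27.7, 25.2 and 26.4 TPM in IFNB1 with LPS, against 1.4, 1.5 and 1.1 TPM in LPS, in Setd1aDel cells. Its difference was 2.20 ± 0.16, and 0.43 with a pseudocount of 0.1, where it was not called (adjusted p = 0.507). Il1b had 215, 197 and 180 TPM in IFNB1 with LPS, against 200.4, 194 and 198 TPM in LPS, in Setd1aDel cells, where the groups overlapped, and its difference was -0.64 ± 0.08. Slfn3 had 0.7, 0.0 and 1.0 TPM in IFNB1 with LPS, against 9.7, 8.5 and 8.6 TPM in LPS, in Setd1aDel cells (difference -2.80 ± 0.29). Saa3 had 148, 148 and 128 TPM in IFNB1 with LPS, against 109, 103 and 102 TPM in LPS, in Setd1aDel cells, opposite in direction to wild-type cells (difference 1.34 ± 0.12).

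The authors' deposited table of the same wild-type comparison called 1782 genes higher and 1458 lower at an adjusted p under 0.05. Of the 166 genes raised at least 2-fold, 155 were called higher in the authors' deposited table, and of the 21 lowered at least 2-fold 11 were called lower there. Of the 2571 called lower by limma 1403 were called lower there and 0 higher. The authors' deposited table gives log2 fold changes of 4.01 for Gbp2, 3.09 for Cxcl10, 1.06 for Ifnb1 and -1.07 for Sirpa.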

How the data were processed

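Per the labels' protocols, polyadenylated RNA was made into stranded TruSeq libraries. Salmon 0.10.2, DESeq2 and R 3.6.0 are named in the submitters' processing notes, as is the build GRCm38.p6. The authors' deposited table lists 18254 genes with levels to 1 decimal, which were read as TPM from the labels and the values, since no header gives their unit. In it the authors also gave log2 fold changes with p-values, which were used for a comparison of calls, and the signal of each gene as a mean normalized count, which was used to check the unit. Read depth is unknown, so no counting interval is given.

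Values were fitted as log2(TPM + 1) with limma 3.58.1 in R 4.3.3, with 1 mean per group over the 12 libraries of the IFNB1 experiment and eBayes with a trend. A gene entered the tests if 3 or more of the 12 libraries had 1 TPM or more, which the libraries of 1 group can meet alone. Two-sided p-values were adjusted by Benjamini-Hochberg over all such genes. The difference between genotypes was a contrast of the same fit. The LPS response came from a separate fit of the 24 libraries of the 6 h experiment, since the tables were normalized separately. Those libraries were of wild-type and Setd1aDel cells given vehicle, LPS, dexamethasone or dexamethasone with LPS, and shared 1 estimate of the spread. Gene coordinates came from GENCODE vM21, and promoter windows from RefSeq. The fit was also run on simulated data with independent normal noise and no shift of whole libraries. That run cannot speak to the dependence on scaling. The comparison, the 32 gene lists and the rule for named genes were chosen with earlier results of these data known. That rule took the 15 highest and 15 lowest changes among called genes at 5 TPM or more without overlap, up to 5 called and 2 uncalled members of each list, the 6 highest and 6 lowest differences between genotypes, the 5 most expressed called genes in each direction and a fixed set of interferon and cytokine genes, 1 of which is not reported here. Alternatives were another pseudocount, no filter, another filter, median-of-ratios scaling, a replicate block, the wild-type libraries alone and leaving out each library.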

Additional observations from a re-analysis of the deposited data

Results flagged for a closer look

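The flags below all concern 1 kind of result, a difference in the IFNB1 response between Setd1aDel and wild-type cells, tested as an interaction in the limma fit. It was called for 1237 of 10923 genes. Among the 122 genes named here it was called for 65, of which 54 were positive and 11 negative. The rule for named genes took the 6 highest and 6 lowest differences, and many others by their wild-type response. The share among named genes is therefore not comparable with that of all genes. A positive value on the log2 scale means a larger response, or a smaller decrease, in Setd1aDel cells. No group held more than 3 libraries, so single libraries were not tested as outliers.

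Among antiviral effectors the difference was 1.83 for Ifit3, 1.73 for Ifit3b, 1.51 for Ifit1, 1.46 for Mx2, 1.10 for Mx1, 1.28 for Rsad2, 0.85 for Cmpk2 and 1.85 for Isg20. It was 0.69 for Oasl2, 0.64 for Oas1a and 0.65 for Oas1c. It was 1.48 for Isg15, 1.15 for Uba7, 0.51 for Ube2l6, 0.91 for Herc6 and 1.01 for Usp18. Among GTPases it was 1.04 for Gbp2, 0.96 for Gbp2b and 1.06 for Tgtp2, and in the IFI200 and Schlafen families 0.69 for Ifi204, 1.08 for Ifi209, 0.66 for Ifi211, 1.15 for Slfn1 and -2.80 for Slfn3. Ifi27 was at -0.17.

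Among factors, sensors and inhibitors the difference was 1.30 for Irf7, 1.19 for Irf1, 0.91 for Stat2, 1.01 for Zbp1, 0.38 for Ifih1, 0.56 for Ddx58, 0.54 for Socs3, 0.38 for Nfkbiz, 0.59 for Atf3 and -0.41 for Tlr2. In antigen presentation it was 1.30 for Psmb9, 0.62 for Psmb10, 0.23 for Psme1, 0.63 for Tap2, 0.62 for H2-T22 and 0.83 for Cd40. Among cytokines and enzymes it was 1.10 for Cxcl10, 0.64 for Ccl2, 1.04 for Nos2, 1.39 for Il27, 2.20 for Il10, 0.82 for Il6, 1.34 for Saa3, -0.64 for Il1b and -0.21 for Tnf.

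For surface, cell death and stress genes the difference was 1.5 for Fcgr1, 0.40 for Fcgr4, 0.32 for Cd47, 0.58 for Casp4, 0.38 for Mlkl, 0.25 for Gsdmd, 0.56 for Ddit3 and 0.36 for Trib3. For replication and lipid genes it was -0.31 for Ccne1, -0.47 for Ccne2, -0.37 for E2f8, -0.36 for Top2a and -0.57 for Scd2. Rps12l1, at 4.93, and Snora21, at -4.59, are the copy and the small RNA described above as poorly measured.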

How the results depend on the processing

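In wild-type cells median-of-ratios scaling gave 1602 genes higher and 1355 lower, with 1036 and 1355 of them called the same way without it. Genes lower by at least 2-fold numbered 60 with a pseudocount of 0.1 and 19 to 32 when 1 library was left out, with 32 without replicate 1 of IFNB1 with LPS. Leaving out 1 library gave 2829 to 3077 calls, with 891 to 989 higher, 1938 to 2182 lower and 164 to 171 higher by at least 2-fold. Of the 122 tested interferon-stimulated genes 108 to 110 were then higher, and 107 to 111 were under the other settings. Ebi3, Icosl and Ikbke lost their wild-type call without 4 of the 6 libraries in turn and Ifnar1 without 3. The LPS response held 3072 genes higher and 3039 lower after scaling.

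The difference between genotypes was less stable. It had 618 positive and 317 negative genes after scaling and 557 negative genes with no filter. Leaving out 1 of the 12 libraries gave 550 to 1885 calls, 243 to 450 positive and 298 to 1435 negative. There were 1885 without replicate 3 of Setd1aDel with both agents and 550 without replicate 2 of wild type with both agents. Calls numbered 716 without replicate 1, and 628 without replicate 2, of Setd1aDel with both agents, and 590 without replicate 2 of Setd1aDel with LPS. They numbered 716 without replicate 1 of wild type with both agents, 563 without replicate 1 and 574 without replicate 2 of wild type with LPS. Without replicate 1 of Setd1aDel with LPS 553 were negative. Among the interferon-stimulated genes 74 to 82 were then positive. After scaling Tnf, Ccne1, Ccne2, E2f8 and Ifi27 lost a called difference, and with a pseudocount of 0.1 Il10, Il6 and Ddit3 did. With 1 library left out at a time, Ccne1, Ccne2, Cd47, Ddit3, E2f8, Fcgr4, Gsdmd, Ifi27, Ifih1, Oas1c, Psmb10, Psme1 and Trib3 lost theirs in several cases. The difference for Tnfsf10 was -0.12, not called, and 1.07 with a pseudocount of 0.1, which raises the weight of low values.

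Libraries with the same number did not deviate together, with correlations of 0.068, -0.096 and -0.007 in wild-type cells, so the numbers were not taken as pairs. With a replicate block 925 genes were higher and 2090 lower in wild-type cells, and the difference had 417 calls, 224 positive and 193 negative. The 3 libraries per group and the 0.1 TPM step of the values limit what can be said of genes near 1 TPM.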

Other observations

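The level that LPS alone gave interferon-stimulated genes differed between the 2 experiments with wild-type RAW264.7 cells. These tables were normalized separately and the cells of the 6 h experiment also had 0.1% ethanol, so the values stand side by side with no test. Gbp2 averaged 84.5 TPM with LPS in the 6 h experiment, and in the IFNB1 experiment 35.4 TPM with IFNB1 and LPS and 2.33 TPM with LPS. Mx1 averaged 75.7 TPM with LPS in the 6 h experiment, and in the IFNB1 experiment 33.7 TPM with IFNB1 and LPS and 3.03 TPM with LPS. Isg15 averaged 1154 TPM with LPS in the 6 h experiment, and in the IFNB1 experiment 1050.3 TPM with IFNB1 and LPS and 411 TPM with LPS. Cxcl10 averaged 391 TPM with LPS in the 6 h experiment, and in the IFNB1 experiment 1186 TPM with IFNB1 and LPS and 149 TPM with LPS.

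Of the 103 interferon-stimulated genes tested in both, 87 had a higher mean with LPS in the 6 h experiment than with LPS in the IFNB1 experiment, with a median ratio of 2.19. Over all 8824 genes tested in both, 2963 did, with a median ratio of 0.786. Set against cells given IFNB1 with LPS, 44 of the 103 genes were higher with LPS in the 6 h experiment, with a median ratio of 0.95. Tnf, an early target of LPS, averaged 886 TPM with LPS in the 6 h experiment, and in the IFNB1 experiment 1295 TPM with IFNB1 and LPS and 966 TPM with LPS. The cause was not tested.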
